A study of Homo sapiens with 2 samples.

Results

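Blood group antigens are variable proteins and sugars on the red cell surface, and 10 genes that carry or make them were examined for LDB1 binding. RHD, RHCE, KEL, XK, ACKR1, BCAM, ICAM4, ERMAP, AQP1 and ABO were taken from a list chosen by gene name, out of 20015 protein-coding genes of GENCODE release 44. Each deposited LDB1 peak that overlapped the body of one of these genes, or the 10 kb on either side, was assigned to it. By this rule 27 of 11046 peaks (0.244%) lay at 9 of the 10 genes. ACKR1 had none.

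The peaks come from NB4, a cell line from a human acute promyelocytic leukemia, profiled by CUT&Tag, in which an antibody directs a transposase to cut and tag DNA beside the bound protein. The series held 1 library made with an LDB1 antibody, labelled LDB1 overexpression, and 1 made with IgG, labelled untreated, so the antibody and the treatment cannot be told apart. Replicates were lacking, so the groups were not compared by a test. Neither a height nor a summit is given for the peaks, only where they lie and how long they are, so the depth behind them is unknown, and each interval below is a Wilson 95% interval for counting error within this library.

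LDB1 binds no DNA itself. In red cell precursors it joins LMO2 with TAL1, which reads E-box sequences, and with GATA1, which reads GATA sequences, and the complex sits at many genes of the red cell membrane. A composite of a partial E-box (CTG) followed at a fixed spacing by a GATA motif is its best known site. NB4 cells are of the granulocyte lineage and are not red cells. Of 8 red cell markers, 7 had a peak within 10 kb (87.5%, interval 52.9 to 97.8%), and of 8 promyelocyte and granulocyte markers, 6 did (75%, 40.9 to 92.9%). AHSP, MPO and CTSG had none. Over all protein-coding genes the share was 25.1%. Some of the markers are neighbours (HBA1 and HBA2, and AZU1, PRTN3 and ELANE), so a peak can count for several genes. The intervals treat the markers as independent. A peak is not expression, and these counts do not tell which of the genes were transcribed.

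The composite was found 5 times in the 27 peaks, in 4 peaks of RHD, KEL, XK and ERMAP. These sites are shown because they hold the letters most often tied to the LDB1 complex. They were read from hg38, 5′ to 3′ on the strand where the composite reads CTG, then 7 or 8 bases, then AGATAA or TGATAA, either of which may end in G instead. Capitals mark the CTG and the GATA motif of the composite. Further GATA motifs in the XK window and in the first ERMAP window are left in lower case.
RHD intron 5, chr1:25302535-25302614, plus strand: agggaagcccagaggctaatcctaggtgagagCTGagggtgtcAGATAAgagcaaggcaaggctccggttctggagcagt
KEL upstream of the start, chr7:142962388-142962467, minus strand: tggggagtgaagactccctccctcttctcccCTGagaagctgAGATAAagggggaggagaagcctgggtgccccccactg
XK intron 2, chrX:37716826-37716905, plus strand: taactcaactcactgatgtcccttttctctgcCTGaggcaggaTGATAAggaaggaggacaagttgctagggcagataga
ERMAP intron 1, first site, chr1:42825199-42825278, plus strand: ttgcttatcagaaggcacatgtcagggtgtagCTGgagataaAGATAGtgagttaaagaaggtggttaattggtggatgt
ERMAP intron 1, second site, chr1:42825457-42825536, minus strand: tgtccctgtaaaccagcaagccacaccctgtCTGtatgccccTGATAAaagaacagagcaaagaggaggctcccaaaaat
The spacing was 8 bases at 4 of the sites and 7 bases at the first ERMAP site. None of the 80-base windows overlapped an annotated exon.

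To see how common such peaks were, the 10 genes were set beside all protein-coding genes and beside 40 other genes that carry, make or regulate blood group antigens. A peak lay within 10 kb of 9 of the 10 genes (90%, interval 59.6 to 98.2%), of 30 of the 40 others (75%, 59.8 to 85.8%), and of 25.1% of all protein-coding genes. At least 2 peaks were present at 6 of the 10 genes, at 17 of the 40 (42.5%) and at 10.9% of all genes. The median was 2 peaks per gene among the 10, 1 among the 40 and 0 among all. The 10 genes were of ordinary length. Their median was 24560 bp against 27466 bp, and among the 13952 genes in their range of lengths (1568 to 67944 bp) 23% had a peak. The list was chosen with earlier results of these data known, so these shares describe the 10 genes and carry no test.

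The same comparison was made for peak position, motifs and length. A peak with its midpoint within 3 kb of a transcription start site (TSS) of the gene was present at 6 of the 10 genes, against 10.3% of all genes and 24 of the 40 others (60.0%). A peak with a GATA motif in the 200 bp around its midpoint was present at 6 of the 10, against 16.2% of all genes and 13 of the 40 (32.5%). A peak with the composite in that window was present at 2 of the 10, against 5.05% of all genes and 4 of the 40. A peak longer than 1 kb was present at 4 of the 10, against 4.78% of all genes and 11 of the 40 (27.5%).

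**Figure D1:**
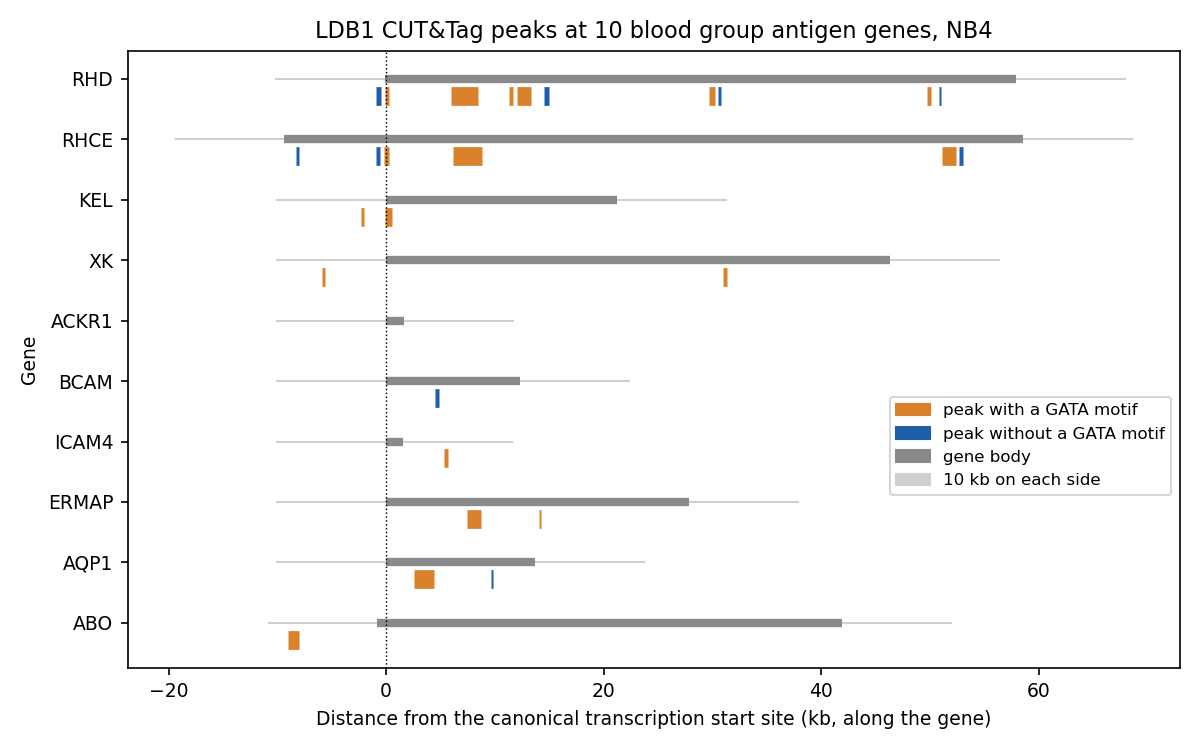
Positions of the 27 LDB1 peaks at the 10 blood group antigen genes. The horizontal axis is the distance in kb from the start of the canonical transcript, positive into the gene, dark bars are gene bodies, thin lines the 10 kb on each side, and blocks are peaks to scale. Orange blocks (18) hold a GATA motif anywhere in their length and blue blocks (9) do not. RHD and RHCE hold 16 of the 27 peaks, and ACKR1 none.

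RHD and RHCE encode the Rh proteins, which carry the D antigen and the C and E antigens. They are neighbouring copies of one ancestral gene that face each other on chromosome 1. RHD (ENSG00000187010.21) lies at chr1:25272393-25330445 on the plus strand and had 10 peaks, a number reached or passed by 47 genes (0.235%). RHCE (ENSG00000188672.19) lies at chr1:25362249-25430192 on the minus strand and had 6 peaks, which 247 genes (1.23%) reached or passed. Both genes thus stood at the upper end of the list by peak number. They were also the longest of the 10, at 58053 bp (RHD) and 67944 bp (RHCE), against a median of 27466 bp for all genes. A longer gene gives a longer window, and peak number was not adjusted for length.

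The longest peak of each gene lay in intron 1 at nearly the same distance from the start. In RHD it ran over 2501 bp at chr1:25278450-25280950, with its midpoint at +7191 bp from the canonical TSS, and it ranked 67 by length of the 11046 peaks. In RHCE it ran over 2733 bp at chr1:25411992-25414724, with its midpoint at +7467 bp, and it ranked 46. Each of these peaks held 5 GATA motifs. The motif nearest the midpoint of the RHD peak is shown with its RHCE counterpart because both copies carry the same 80 bases. Capitals mark the GATA motif, which reads in the reverse direction here.
RHD intron 1, chr1:25279679-25279758, plus strand: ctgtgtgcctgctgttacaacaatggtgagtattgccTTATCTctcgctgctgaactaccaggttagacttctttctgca
RHCE intron 1, chr1:25413585-25413664, minus strand: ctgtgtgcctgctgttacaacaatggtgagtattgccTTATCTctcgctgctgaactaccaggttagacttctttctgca
These bases are identical, so a read that covers only them fits either gene equally well.

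Both start sites were also covered. The RHD peak was 365 bp long at chr1:25272361-25272725 and spanned exon 1, including 148 coding bases. The RHCE peak was 493 bp long at chr1:25420569-25421061, with its midpoint at +10 bp. Each held 2 GATA motifs, which began at -76 bp and +179 bp from the TSS in both genes, where minus marks upstream. The midpoint of the RHD peak was at +34 bp, so its central 200 bp held neither motif. Those of the RHCE peak held the upstream motif, so only the RHCE peak counts as a GATA peak in the shares for 200 bp windows. The upstream motif is shown with its surroundings, in capitals, since it lies in both start-site peaks.
RHD start, chr1:25272421-25272450, plus strand: ccttgcagcctgAGATAAggcctttggcgg
RHCE start, chr1:25420884-25420913, minus strand: ccttgcagcctgAGATAAggcctttggcgg
The 30 bases are again identical. In both genes all 30 lie in annotated exon sequence, although upstream of the canonical TSS. A further peak lay just upstream in each gene, 421 bp long with its midpoint at -722 bp in RHD and 383 bp long at -717 bp in RHCE.

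Further peaks lay deeper in both genes. In RHD a peak of 1313 bp at chr1:25284518-25285830 was centred at +12665 bp in intron 2, covered 187 coding bases and held GATA and RUNX motifs near its midpoint. Its central 31 bases were found 321 times in hg38. A peak of 590 bp at chr1:25302192-25302781 in intron 5 held the composite shown above, with GATA, E-box and ETS motifs in the central 200 bp. A peak of 401 bp in intron 9, at +49933 bp, held GATA, E-box, RUNX and KLF motifs. These, the intron 1 peak and the upstream peak were the 5 longest of RHD. The other 5 peaks of RHD, the start-site peak among them, were 247 to 394 bp long.

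In RHCE the second longest peak measured 1288 bp at chr1:25368414-25369701 and lay in intron 9, at +51768 bp. A peak of 363 bp followed it in the same intron, at +52855 bp, with KLF and AP-1 motifs. The remaining peak was the shortest of all 27, at 230 bp, and lay at -8137 bp from the canonical TSS but 1230 bp from the start of another RHCE transcript. The 4 peaks in intron 9 of the pair were nearest to the start of another protein-coding gene: those of RHD to RSRP1, at 14776 and 13795 bp, and those of RHCE to TMEM50A, at 26465 and 25378 bp.

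Since RHD and RHCE are copies, each peak was aligned with the other gene. All 10 RHD peaks had a counterpart in RHCE, 88.8 to 99.1% identical. The RHCE bases lay in an RHCE peak for 4 of them, namely the upstream peak, the start-site peak, the long intron 1 peak and 1 peak of intron 9. For the other 6 they did not, and the nearest RHCE peak was 86 to 19955 bp away. In the opposite direction 5 of 6 RHCE peaks had a counterpart in RHD (95.5 to 99.2% identical), and all 5 counterparts overlapped an RHD peak, although 1 of them aligned over 50.2% of its length. This last counterpart overlapped the RHD peak at +49933 bp, which was counted above as lacking an RHCE peak, with the nearest 86 bp away. That RHD peak was thus unmatched in the first direction and matched in the opposite direction. The RHCE peak at -8137 bp had no counterpart.

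**Figure D2:**
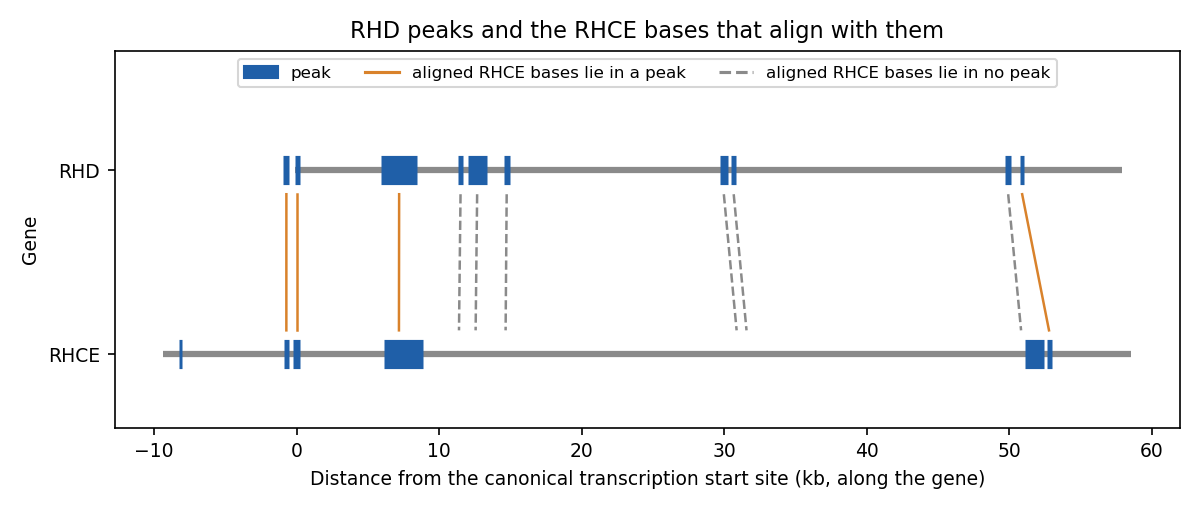
Peaks of RHD (upper line) and RHCE (lower line) by distance in kb from the canonical transcription start site, with gene bodies in grey and peaks in blue. Each line joins an RHD peak with the RHCE bases that align with it, solid orange where these lie in an RHCE peak (4) and dashed grey where they do not (6). The 3 peaks nearest the start recur in both genes, whereas those between 11 and 31 kb were called in RHD alone.

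The composite of RHD intron 5 was among the sites called in RHD alone. Its RHCE counterpart kept the CTG and the GATA motif at the same spacing, with no peak there. It is shown because the pair differed in 3 of 80 bases. The substitutions were C9T, T20A and C77T, with the RHD base first and positions counted from 1 at the 5′ end of the printed sequence.
RHCE counterpart, chr1:25389821-25389900, minus strand: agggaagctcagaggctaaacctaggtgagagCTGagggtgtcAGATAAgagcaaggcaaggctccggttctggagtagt
All 3 lie outside the capitals.

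Reads from such copies cannot be assigned with certainty, so the share of each peak with a sequence found once in hg38 was computed. In RHD peaks, 33.7 to 87.2% of all 50-base words were found once, and 62.9 to 100% of 100-base words. In RHCE peaks these ranges were 37.2 to 100% and 65.7 to 100%, with the full value of 50-base words at the peak that had no counterpart. At the other genes each peak reached 100% for both, except that of ABO, with 72.3% and 99.0%. How far reads of one Rh gene were placed on the other was not tested, and the number of peaks of either gene carries this limit.

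**Figure D3:**
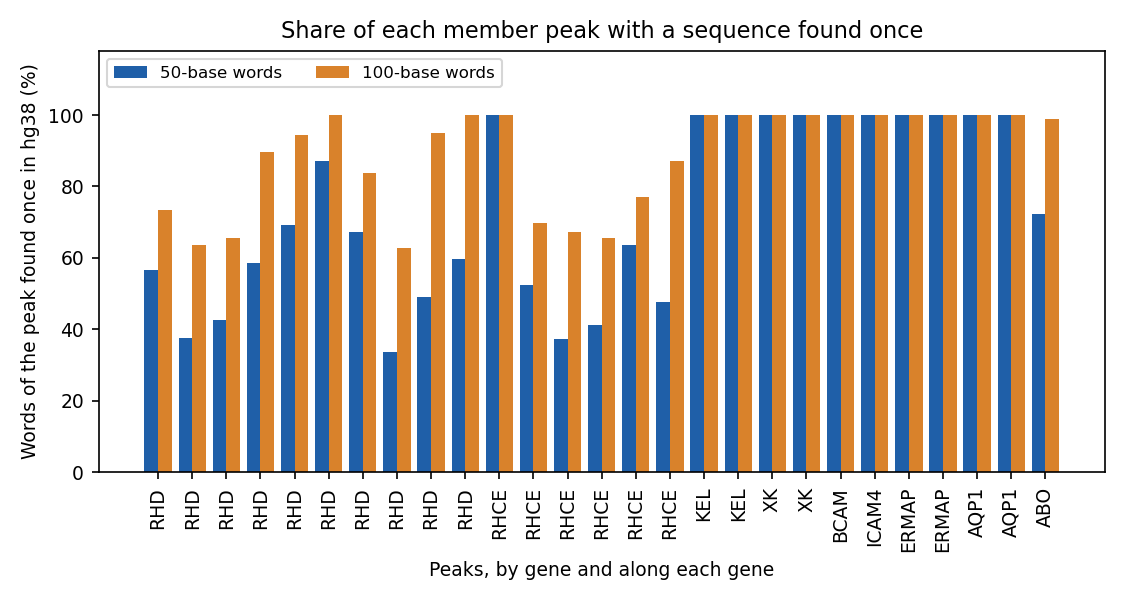
Percentage of all 50-base (blue) and 100-base (orange) words in each of the 27 member peaks that occur once in hg38, on either strand. Peaks are ordered by gene and along each gene. RHD and RHCE peaks lie between 33.7 and 100%, while peaks of the other genes stand at 100% except the single ABO peak.

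KEL and XK encode the 2 partners of the Kell blood group complex, a surface endopeptidase and the membrane protein that is linked to it. KEL (ENSG00000197993.9) lies at chr7:142941114-142962363 on the minus strand and had 2 peaks. The longer, 679 bp at chr7:142961827-142962505, covered the start of the gene, with its midpoint at +197 bp in intron 1, and ranked 2638 by length. It held 5 GATA motifs and the composite shown above, centred at -65 bp, so that KEL was the gene among the 10 with a composite directly ahead of its canonical start. The other peak, 283 bp at -2158 bp, held GATA, E-box and RUNX motifs.

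XK (ENSG00000047597.7) lies at chrX:37685791-37732130 on the plus strand, and neither of its 2 peaks was near its start. A peak of 325 bp at chrX:37679853-37680177 lay upstream, at -5776 bp, with GATA, E-box and AP-1 motifs in its central 200 bp. A peak of 404 bp at chrX:37716767-37717170 lay in intron 2, at +31177 bp. It held 3 GATA motifs, 1 of them in the composite at +31075 bp. The partners thus differed in that the KEL peaks lay at or near its start and those of XK far from its own, with GATA motifs in each of the 4.

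ERMAP is an immunoglobulin-like membrane protein that carries the Scianna antigens. Its gene (ENSG00000164010.15) lies at chr1:42817122-42844991 on the plus strand and had 2 peaks. The longer, 1265 bp at chr1:42824547-42825811, was centred at +8057 bp in intron 1 of the canonical transcript, 381 bp from the start of another ERMAP transcript, and ranked 637. It held 6 GATA motifs and both ERMAP composites, at +8117 and +8375 bp, and was the peak with the most of either among the 27. The second peak was 248 bp long at +14142 bp in intron 4, 1349 bp from a further ERMAP start, with GATA and E-box motifs.

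AQP1 encodes the water channel that carries the Colton antigens. The gene (ENSG00000240583.14) lies at chr7:30911853-30925517 on the plus strand, and both of its peaks were in intron 1. A peak of 1816 bp at chr7:30914451-30916266 was centred at +3505 bp, ranked 214 and was the longest outside the Rh genes. It held 2 GATA motifs, 4 E-boxes and 6 KLF motifs but no composite. The GATA motif nearest its midpoint is shown, in capitals, as a GATA site of a long peak without the composite.
AQP1 intron 1, chr7:30915256-30915335, plus strand: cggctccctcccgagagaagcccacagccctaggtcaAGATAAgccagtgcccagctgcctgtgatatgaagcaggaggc
The second AQP1 peak was 263 bp long at +9735 bp, 98 bp from the start of another AQP1 transcript, and held none of the 8 motifs in its central 200 bp.

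BCAM and ICAM4 are adhesion molecules of the immunoglobulin family that carry the Lutheran and the LW antigens. BCAM (ENSG00000187244.12) lies at chr19:44809071-44821421 on the plus strand and had 1 peak of 340 bp at chr19:44813584-44813923, in intron 6 at +4650 bp and 315 bp from the start of another BCAM transcript. It held no GATA motif and included 37 coding bases. ICAM4 (ENSG00000105371.10) lies at chr19:10286955-10288522 on the plus strand, and its 1 peak was 403 bp long at chr19:10292240-10292642, 3718 bp beyond the end of the gene. That peak held 1 GATA motif, outside its central 200 bp, and 4 KLF motifs. The start nearest to that peak was that of ICAM5, at 968 bp, so the assignment to ICAM4 rests on the 10 kb rule. The next peak outside the ICAM4 window lay 10786 bp from the gene.

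ABO encodes the glycosyltransferase that makes the A and B antigens. The gene (ENSG00000175164.16) lies at chr9:133233278-133276024 on the minus strand and had 1 peak, which lay upstream of the gene. It was 935 bp long and ranked 1353. It was also the 1 peak outside the Rh genes whose central 31 bases were found more than once in hg38. They were found 406 times.

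ACKR1, the chemokine receptor that carries the Duffy antigens, lies at chr1:159204875-159206500 on the plus strand (ENSG00000213088.13). It is 1626 bp long, and the peak nearest to it was 124940 bp away. The lack of a peak in this list does not show that LDB1 was absent there, since the depth is unknown.

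Over the 27 peaks the median length was 401 bp (quartiles 334 and 807 bp, range 230 to 2733 bp), against 451 bp for all 11046 peaks (quartiles 314 and 666 bp, range 229 to 4856 bp). Most were of ordinary length, but 6 (22.2%) exceeded 1 kb, against 1158 of all peaks (10.5%). Of these 6, 2 each were at RHD and RHCE and 1 each at ERMAP and AQP1. The median was 397.5 bp at the Rh genes and 403 bp at the other 7 genes with a peak.

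**Figure D4:**
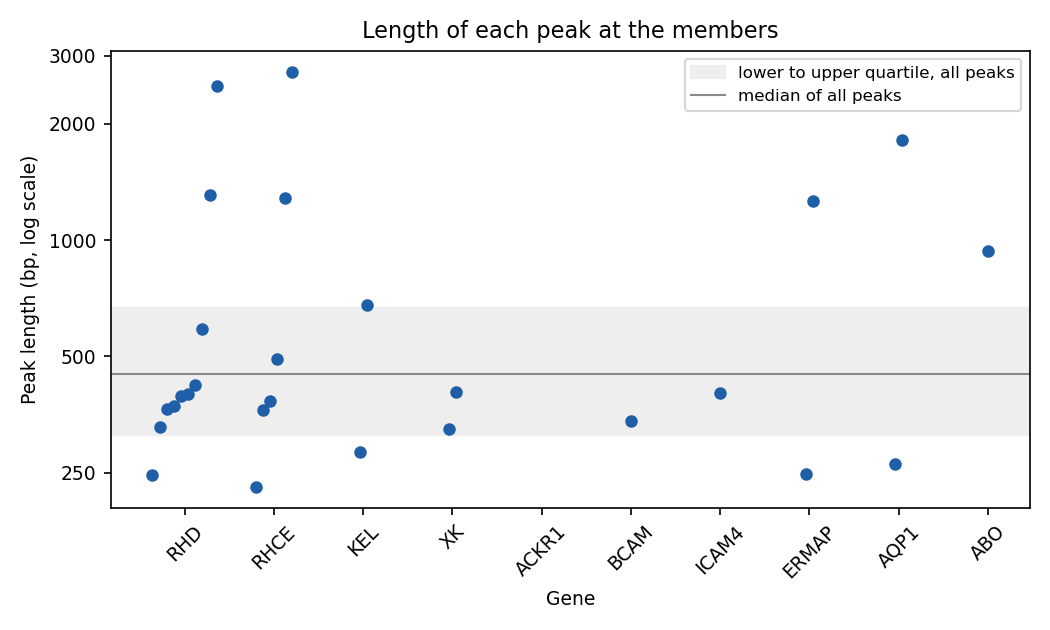
Length in bp, on a log scale, of each peak at the 10 genes, 1 point per peak. The grey line is the median of all 11046 peaks (451 bp) and the grey band runs from their lower to their upper quartile (314 to 666 bp). The 6 points above 1000 bp belong to RHD, RHCE, ERMAP and AQP1.

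By position, 18 of the 27 peaks had their midpoint in an intron, 7 of them in intron 1. Another 2 had it in an exon, 4 lay upstream of the gene, 2 lay upstream of the canonical TSS but within the body of RHCE, and 1 lay downstream. The midpoint was within 3 kb of a TSS of any transcript for 13 peaks (48.1%, interval 30.7 to 66.0%), against 35.6% of all peaks (34.7 to 36.5%). The intervals overlap. For a TSS of a protein-coding gene the share was again 48.1%, against 24.2% of all peaks, which lies below the interval of the 27. The 27 were taken from windows around protein-coding genes and the whole list was not. A higher share near such starts is thus partly built in by the rule, and nothing is concluded from it. For a TSS of any transcript the share was 31.2% (14.2 to 55.6%) at the Rh genes, which hold several deep intronic peaks, and 72.7% (43.4 to 90.3%) at the others. For 22 peaks no other protein-coding gene had a nearer TSS than the gene itself.

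To compare sequence content, 8 motifs were searched on both strands in the 200 bp around each midpoint, in all peaks and in flanks 1000 bp to either side. The GATA motif was present in 14 of 27 peaks (51.9%, interval 34.0 to 69.3%), against 47.1% of all peaks and 27.5% of flanks. It was present in 7 of 16 peaks at the Rh genes (43.8%, 23.1 to 66.8%) and in 7 of 11 at the others (63.6%, 35.4 to 84.8%). The composite was present in 2 of 27 (7.41%, 2.06 to 23.4%), against 11.2% of all peaks and 1.62% of flanks. Both intervals include the value of all peaks, so the 27 peaks could not be told from the list by either motif at this number. The values of the flanks lie below both intervals. For GATA, however, the flank value lies within the interval of the Rh peaks alone and below that of the others. The intervals treat peaks as independent, whereas 16 of the 27 lie at near-identical copies. The composite share rests on 2 peaks.

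For the other 6 motifs the intervals include the value of the flanks as well as that of all peaks. E-boxes (CAGATG in either direction, and CAGCTG) were in 10 of 27 peaks (37.0%, 21.5 to 55.8%), against 33.8% of all peaks and 22.2% of flanks. RUNX motifs (TGTGGT or TGCGGT) were in 4 (14.8%), against 20.5 and 16.6%. KLF motifs (CCNCNCCC) were in 5 (18.5%, 8.18 to 36.7%), against 32.0 and 21.2%. The RUNX and KLF shares lay below those of the flanks, as did the CEBP share given next. ETS (AGGAAGT or CGGAAGT), AP-1 (TGANTCA) and CEBP (TTGCNNAA) motifs were in 2 peaks each (7.41%), against 6.18, 12.0 and 7.47% of all peaks and 4.49, 6.19 and 9.12% of flanks.

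Over whole peaks, which vary in length, 47 GATA matches in 19383 bp gave 2.42 per kb, against 2.64 per kb in all peaks. The composite stood at 0.258 per kb against 0.432 per kb. At least 1 GATA motif was found in 18 of 27 whole peaks (66.7%), against 71.4% of all, and the composite in 4 (14.8%), against 22.4%. A GATA match is also counted within a composite, and a match to these letters does not show that a factor was bound.

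**Figure D5:**
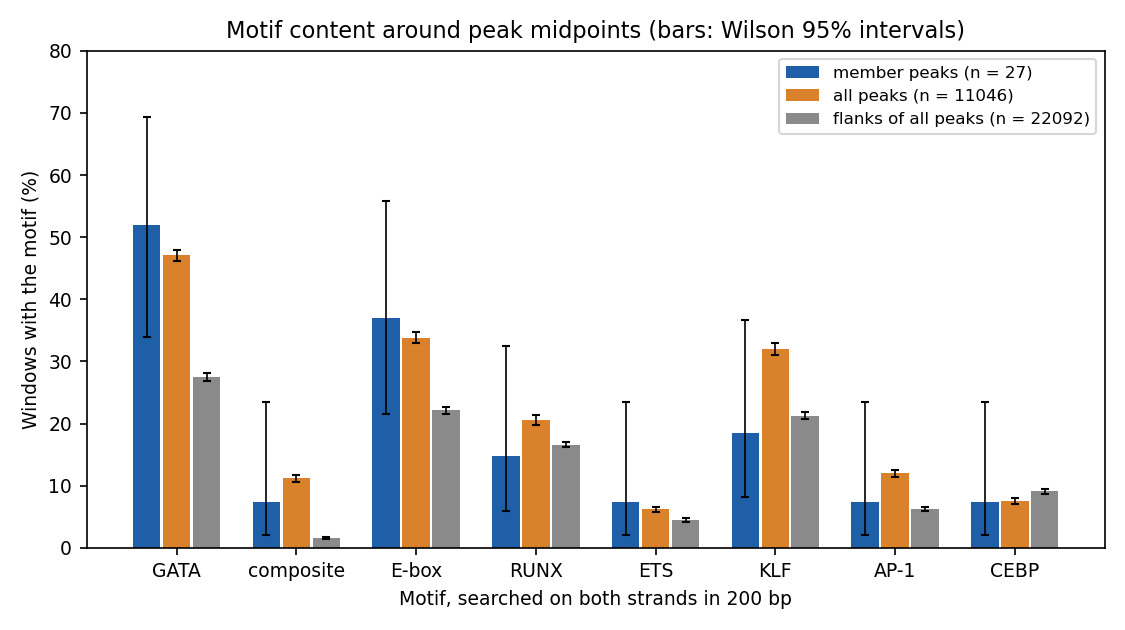
Percentage of 200 bp windows that hold each of 8 motifs, for the 27 peaks of the blood group antigen genes (blue), all 11046 peaks (orange) and 22092 flanking windows (grey). Error bars are Wilson 95% intervals. GATA stands at 51.9% in the 27 peaks and 47.1% in all peaks, against 27.5% in flanks, and each wide blue interval includes the orange value.

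The promoters were also read from RefSeq (GRCh38.p14), 250 bases before to 50 after each start. The table of 35116 promoters gave 11 for RHD, RHCE, KEL, BCAM, ICAM4, ERMAP and AQP1, and XK, ACKR1 and ABO were not matched. A GATA motif was present in 7 of the 11, against 25% of all promoters, the composite in 2 (KEL and the second ERMAP promoter), against 1.34%, and the KLF motif in 11, against 56.2%. The other motifs were rarer in the 11 than in all promoters. RUNX was in 1 (9.09%), against 19.6%, and E-box, ETS, AP-1 and CEBP motifs were in 0, against 29.8, 14.4, 7.71 and 10.5%. The promoters given for RHD overlap each other, and so do those for RHCE and for BCAM. An LDB1 peak overlapped both promoters of RHD, both of RHCE, that of KEL and the second of ERMAP. Both promoters with a composite thus lay under a peak, but so did those of RHD and RHCE, which held none. The promoters of BCAM, ICAM4 and AQP1 and the first of ERMAP did not. The share of all 35116 promoters under a peak was not computed, so nothing is concluded from these counts.

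The 40 other genes of the blood group systems set the 10 in context. They had 95 peaks, and those with the most were SLC4A1, the band 3 anion exchanger, with 10, GYPC, glycophorin C, with 9, CR1, a complement receptor, with 9, ABCC4 with 7 and ABCC1 with 6. No peak was found at B3GALNT1, PIGG, GCNT2, CD151, CD44, B4GALNT2, FUT3, A4GALT, CD99 or XG. The 40 genes were grouped by role after these values were seen. A peak lay at 4 of 4 glycophorin genes, 11 of 11 transporter and channel genes and 5 of 5 genes of complement proteins and regulators. It lay at 3 of 8 glycosyltransferase genes and 7 of the remaining 12, against 25.1% of all protein-coding genes. Gene length was not taken into account for the 40, although longer genes give longer windows, so nothing is concluded from these counts. Among the glycophorins, C4A and C4B, and within CR1, near-identical sequence limits the placement of reads as it does at the Rh genes.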

How the data were processed

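NB4 cells were profiled by CUT&Tag in 2 libraries, 1 per antibody (LDB1, IgG). The submitters' processing notes name Bowtie2 2.4.4, MACS3 3.0 and hg38. The deposited values were the positions and lengths of LDB1 peaks in bp, called by the authors. Whether IgG served as control, and how ambiguously aligned reads or duplicates were treated, is not given in the sources used here. The IgG library was not analysed here.

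Members and lists were chosen with earlier results of these data known. Peaks were intersected with GENCODE 44 gene bodies extended by 10 kb (overlap of at least 1 bp), and second copies of pseudoautosomal genes on chromosome Y were dropped. Distances were taken from peak midpoints to a TSS, which was the canonical transcript's unless stated. Motifs were consensus letters. RHD and RHCE peaks were aligned with BLAST 2.17.0, and a counterpart needed at least 25% of the peak aligned. Words of 31, 50 and 100 bases were counted over hg38 chromosomes 1 to 22, X and Y.

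The sequence and exact position of the ABO peak are not reported here. All members are named with each peak, except RHD, for which the rule gave its 5 longest. Its start-site peak was added after the values were seen. Of the other blood group genes, the 5 with the most peaks and those without a peak are named. Alternatives were other gene windows, longer or unique peaks, merged peaks, other TSS sets and other motif windows. Used were pysam 0.24.0, numba 0.67.0, SciPy 1.17.1, matplotlib 3.10.9, pandas 2.3.3 and numpy 2.4.6 under Python 3.11.15. The counting was tested on simulated data.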

Additional observations from a re-analysis of the deposited data

How the results depend on the processing

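Across 7 results, 45 of 54 alternative values stayed within 1.5 times the count or within the interval of the reported value. The number of genes with a peak ranged from 6, with the 5523 longest peaks of the list, to 9. The 27 peaks became 10 with the longest peaks, 13 with peaks whose central 31 bases occur once in hg38, and 11 without RHD and RHCE. The share within 3 kb of a TSS rose from 48.1% to 69.2% with such unique peaks and to 72.7% without the Rh genes. The GATA share of 51.9% became 80% in the longest peaks and 25.9% in windows of 100 bp, and the composite share of 7.41% became 0 in those windows. No share over all peaks is given for these settings, so the changes are not read as particular to the 27 peaks. The median length of 401 bp became 1276 bp in the longest peaks, by construction. No paired analysis was possible because neither group had a second library. Depth and peak height are unknown, so a weak peak could not be told from a strong one.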
